A study of Mus musculus with 8 samples.

Results

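Fatty acid oxidation is the set of reactions by which hepatocytes shorten fatty acids 2 carbons at a time, and ketogenesis turns the acetyl-CoA that results into ketone bodies for export. The nuclear receptor PPAR alpha drives the transcription of many of these enzymes during fasting; acyl-CoA synthetases activate the fatty acid, the carnitine shuttle carries long chains into mitochondria, and dehydrogenases, hydratases and thiolases run each round of the spiral. A second oxidation system in peroxisomes takes very long, branched and dicarboxylic chains.

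The genes described here are 45 mouse genes of mitochondrial and peroxisomal oxidation, ketone body metabolism and PPAR alpha regulation, picked by name from a list and found on the array through the accession printed with each probe. They are 45 of the 21368 genes that could be named on the array, and all 45 had a probe. Total RNA was taken from hepatocytes of untreated male mice on a standard diet, 12 to 14 weeks old, and was hybridised in 1 colour to 8 Agilent arrays, 1 per sample. hCNR1-/- mice (labelled hCNR1_cKO, strain CNRO Alb-Cre, n = 4) carry floxed alleles of the cannabinoid 1 receptor gene Cnr1 and a Cre recombinase driven by the albumin promoter, which is active in hepatocytes. The hCNR1+/+ controls (labelled hCNR1_WT, strain CNRO, n = 4) were littermates, so the presence of Alb-Cre and the deletion cannot be told apart. The comparison asks how loss of the hepatocyte receptor changed basal gene expression before any liver injury.

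A single slide carried all 8 arrays with each genotype in a row of its own, and the effect of the row cannot be told apart from that of the genotype. The 75th percentile of spot intensity ranged from 62.0 to 139 on the hCNR1+/+ arrays and from 29.3 to 124 on the hCNR1-/- arrays. Replicate 4 was the dimmest array of both genotypes. The 1 Cnr1 probe was well above background on 0 of 8 arrays, so the deletion could not be checked here. All 21 hepatocyte markers found on the array were tested, and all 21 were well above background on every array. Levels below are log2 signals relative to the 75th percentile of the same array, and a difference is hCNR1-/- minus hCNR1+/+. Because each probe hybridises with its own efficiency, levels are compared between arrays and never between genes.

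Of the 45 genes, 42 were well above background on at least 4 arrays and were tested, and 34 of them were well above background on all 8. Most of the pathway showed no difference past either threshold. With limma and Benjamini-Hochberg adjustment over all 11072 genes tested, 1 of the 42 fell (Ucp2) and 1 rose (Hadha) at an adjusted p below 0.05. Over all genes tested 1.3% were called lower and 2.94% higher by that rule, 4.24% in either direction, against 4.76% of the pathway genes. By the fold threshold, meaning over 2-fold with an unadjusted p under 0.05, 1 of the 42 was lower (Ucp2) and 3 were higher (Acsl4, Hadh and Decr2), or 9.52%, where the background was 3.75% lower, 4.78% higher and 8.53% in either direction. The share called was thus close to that of all genes by both rules. The 2 genotypes did not overlap for 6 members, Ucp2 on the lower side and Acsl4, Acad10, Hadh, Hadha and Decr2 on the higher side (2.38% and 11.9%, against 5.04% and 12.7% of all genes). Of the 42, 24 had a difference below 0 and 18 above 0, beside 4808 and 6264 of all 11072 genes. The median difference was -0.15, beside 0.08 for all genes tested.

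**Figure D1:**
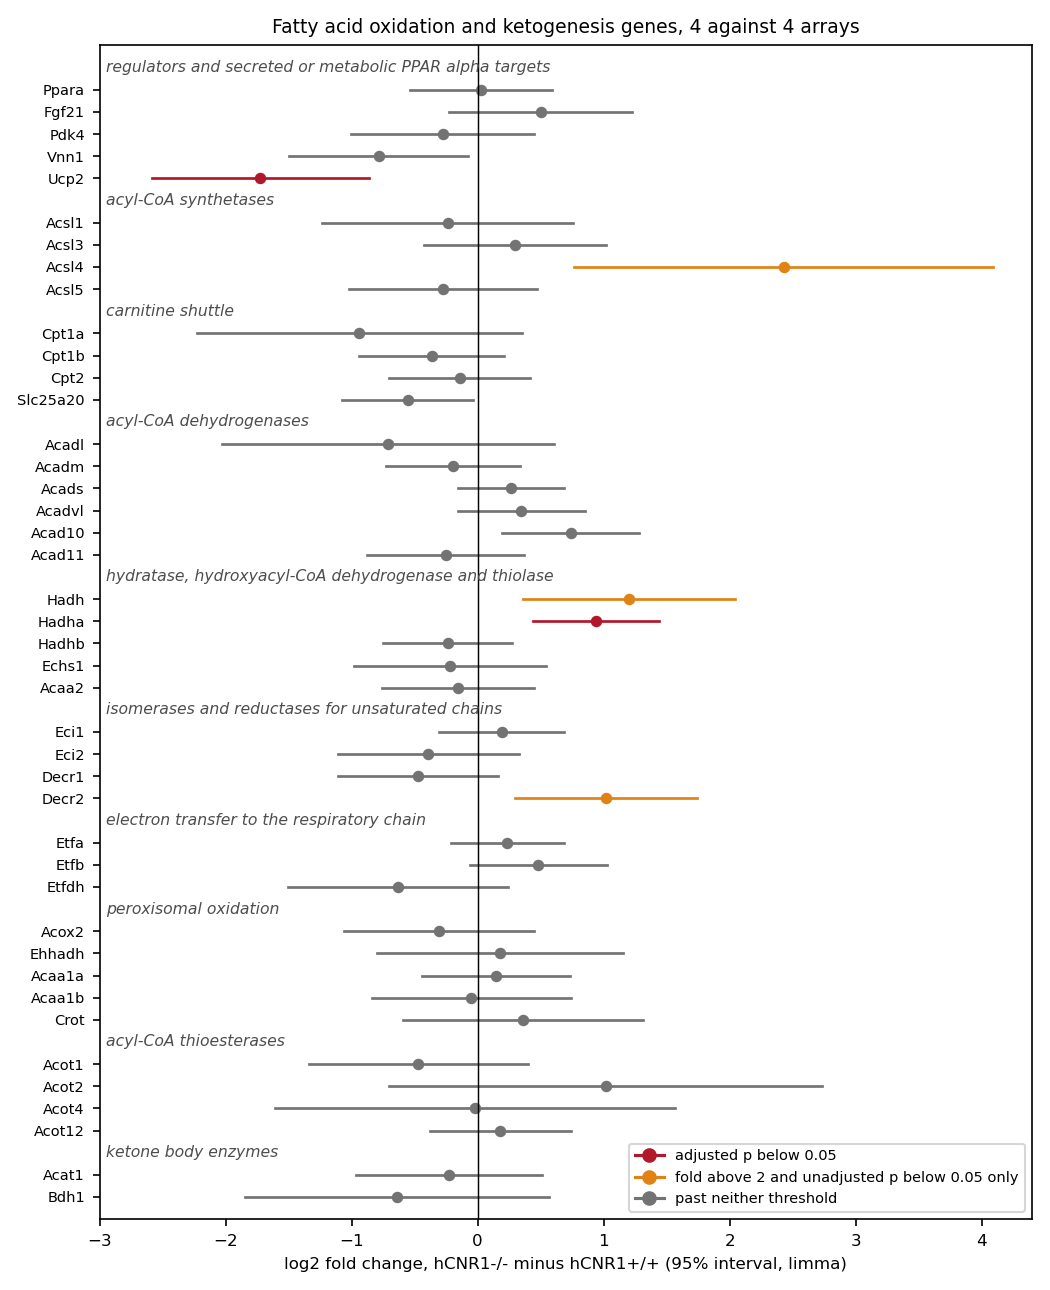
Log2 fold change (x axis, hCNR1-/- minus hCNR1+/+) of the 42 tested genes in order of role, with limma's 95% interval as a line and colour for the threshold passed. Ucp2 lies at -1.72 and Acsl4 at 2.43, and 34 of the 42 intervals include 0.

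The master regulator of the pathway was at the same mean in both genotypes within its spread. Ppara, which encodes PPAR alpha, read 3.82, 4.003, 4.22 and 4.88 on the hCNR1+/+ arrays and 4.30, 4.15, 4.30 and 4.29 on the hCNR1-/- arrays. The difference was 0.03 (95% interval -0.53 to 0.59, limma adjusted p = 0.964), and the hCNR1+/+ arrays spread over a wider range than the hCNR1-/- arrays. A value this close to 0 changed sign under the other scalings (-0.08 with quantile normalization; -0.02 with median scaling and -0.53 without scaling, both of which shift every gene alike), and its 2 other probes gave -0.39 and 0.13. Ppargc1a, the coactivator of PPAR alpha, was well above background on 1 of 8 arrays by 1 probe and on 0 by the other and was not tested.

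Of the PPAR alpha targets outside the oxidation spiral, Fgf21, Pdk4 and Vnn1 passed neither threshold. Fgf21, a hormone that the liver secretes in fasting, read 3.52, 4.36, 3.48 and 2.89 in hCNR1+/+ and 3.84, 4.57, 4.01 and 3.82 in hCNR1-/-, a difference of 0.50 (interval -0.23 to 1.23, limma adjusted p = 0.406). Leaving out the scaling shifts every gene alike (the median of all genes becomes -0.47), and Fgf21 was then -0.06. Pdk4, the kinase that shuts pyruvate dehydrogenase and so spares glucose, read 2.84, 2.81, 3.15 and 3.03 in hCNR1+/+ and 3.06, 2.63, 3.29 and 1.74 in hCNR1-/-. Its difference of -0.28 (interval -1.01 to 0.45, limma adjusted p = 0.653) came from hCNR1-/- replicate 4, and was 0.03 without it. Vnn1, a pantetheinase that recycles a precursor of coenzyme A, differed by -0.79 with an unadjusted limma p of 0.0334 and an adjusted p of 0.189, and the groups overlapped.

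Ucp2 fell. This gene encodes a carrier of the inner mitochondrial membrane and is a PPAR alpha target in hepatocytes, while in normal liver it is also strongly expressed in Kupffer cells, the resident macrophages. Its log2 signal was -1.35, -1.15, -0.69 and -0.52 on the hCNR1+/+ arrays and -2.16, -3.80, -2.48 and -2.16 on the hCNR1-/- arrays. The highest hCNR1-/- value was below the lowest control value. The difference was -1.72 (SE 0.38, limma adjusted p = 0.0411, 3.3-fold lower), and the exact two-sided permutation p was 0.0286, the smallest that 4 against 4 arrays allow. Every gene whose genotypes do not overlap gets this permutation p, so here and below it adds nothing to the lack of overlap. The spot was well above background on 4 hCNR1+/+ arrays but only 2 hCNR1-/- arrays, so the lower group was near the limit of measurement. With normexp background correction the difference was -0.41 with a limma adjusted p of 0.573. That setting adds an offset of 50 before the log, which draws differences of dim spots towards 0. For a spot as dim as this one it therefore cannot decide the call.

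Kupffer cell markers lay on the same side as Ucp2. All 12 tested of 17 Kupffer markers had a difference below 0 (4808 of all 11072 genes did), 2 past the adjusted threshold (1.3% of all genes lower) and 6 past the fold threshold (3.75% lower), with a median of -0.98. Of the 6, Ctss and Vsig4 were well above background on 4 hCNR1+/+ arrays but only 2 hCNR1-/- arrays, near the limit of measurement. Clec4f and Mpeg1 were so on 3 hCNR1-/- arrays, and Marco and C1qa on 4. Ctss was also 1 of the 2 adjusted calls. The mean log2 level of the 12 tested markers was 1.16, 1.61, 1.41 and 2.29 on the hCNR1+/+ arrays and 0.43, 0.08, 0.82 and 0.67 on the hCNR1-/- arrays. Ucp2 was at its lowest on the array where the Kupffer mean was also lowest, hCNR1-/- replicate 2. On hCNR1-/- replicate 3, which had the highest Kupffer mean of that genotype (0.82), Ucp2 was at -2.48, below replicates 1 and 4. Among the hCNR1+/+ arrays both were lowest on replicate 1 (Ucp2 -1.35, Kupffer mean 1.16) and highest on replicate 4 (-0.52 and 2.29). Replicates 2 and 3 of that genotype were in opposite order for the gene and the Kupffer mean. The part of these cells in the Ucp2 result was not tested; in such bulk samples fewer cells of a type and less RNA per cell cannot be told apart.

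**Figure D2:**
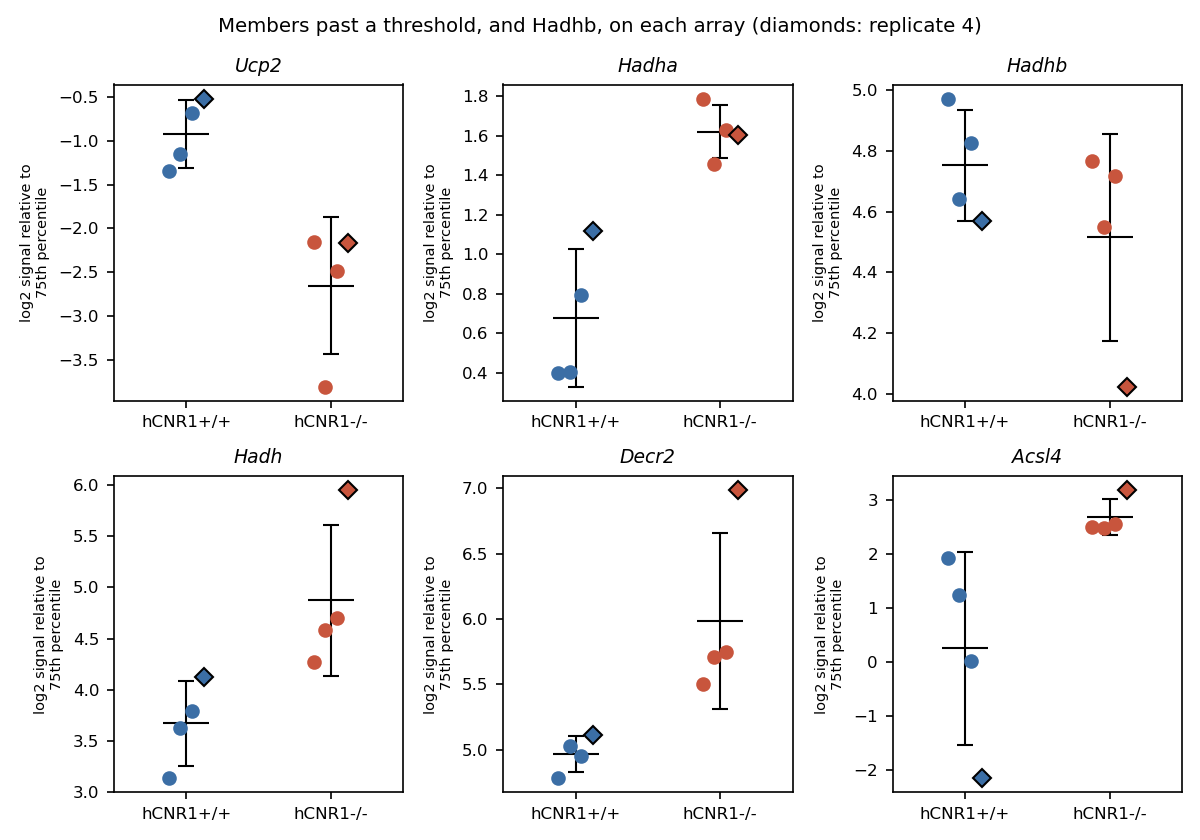
Log2 signal relative to the 75th percentile of each array (y axis) for the 5 genes past a threshold and for Hadhb, by genotype; each point is 1 array, the bar is the mean and the whiskers are 1 SD (n = 4), and diamonds mark replicate 4. Ucp2 is lower and Hadha, Hadh, Decr2 and Acsl4 are higher on all hCNR1-/- arrays, while the Hadhb arrays overlap, and each axis has its own range.

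Fatty acids are first activated to acyl-CoA, and of the 4 synthetases tested 1 passed the fold threshold. Acsl4, the form that prefers arachidonic acid, read 1.93, 1.24, 0.02 and -2.14 in hCNR1+/+ and 2.52, 2.49, 2.57 and 3.19 in hCNR1-/-. The groups did not overlap, but the hCNR1+/+ arrays ran over 4 units while the hCNR1-/- arrays lay close together. The difference was 2.43 (SE 0.74, 5.38-fold, exact permutation p = 0.0286, limma adjusted p = 0.0971), it did not pass the adjusted threshold, and its probe was well above background on 3 of the 4 hCNR1+/+ arrays. Without hCNR1+/+ replicate 4 the difference was 1.63. Acsl1, the main synthetase of hepatocytes, differed by -0.24 (interval -1.23 to 0.76), Acsl5 by -0.27 (-1.02 to 0.48) and Acsl3 by 0.30 (-0.42 to 1.02). Acsl3 was well above background on 5 of 8 arrays.

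The carnitine shuttle, the gate of long chains into mitochondria, had 4 members tested. None passed a threshold, and all 4 had a mean below that of hCNR1+/+, as did 4808 of all 11072 genes. Cpt1a, the rate-limiting carnitine palmitoyltransferase of the outer membrane, read 3.51, 2.73, 3.09 and 3.26 in hCNR1+/+ and 3.06, 2.999, 2.55 and 0.22 in hCNR1-/-. The first 3 hCNR1-/- arrays lay within or just below the range of the controls, and replicate 4 lay far below it. The difference was -0.94 (interval -2.23 to 0.35, limma adjusted p = 0.38) and -0.27 without that array, and the second probe gave -0.25. Cpt2, the inner membrane partner, read 5.70, 5.41, 5.95 and 5.85 in hCNR1+/+ and 5.58, 5.90, 5.84 and 5.02 in hCNR1-/-, a difference of -0.14 (interval -0.70 to 0.42, limma adjusted p = 0.769). It was 0.05 without hCNR1-/- replicate 4, and its second probe gave -0.66.

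Slc25a20, the translocase that exchanges acylcarnitine for carnitine between both enzymes, read 0.65, 0.26, 0.95 and 0.96 in hCNR1+/+ and -0.17, 0.19, 0.25 and 0.34 in hCNR1-/-. Only the lowest control fell within the range of the hCNR1-/- arrays. The difference of -0.56 (interval -1.07 to -0.04) had an unadjusted limma p of 0.0378 and an adjusted p of 0.202. Cpt1b, the muscle form of the outer enzyme, differed by -0.36 (interval -0.94 to 0.21). Crat, carnitine acetyltransferase, was well above background on 2 of 8 arrays and was not tested. Averaged over the 4 tested genes, the hCNR1+/+ log2 level of 1.97 ± 0.18 (SD, n = 4) compared with 1.47 ± 0.37 for hCNR1-/- (SD, n = 4); the difference of means was -0.50 with all arrays and -0.32 without hCNR1-/- replicate 4.

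The first oxidation of each round is catalysed by acyl-CoA dehydrogenases that divide the work by chain length, and none of the 6 passed a threshold. Acadm, the medium-chain enzyme, read 5.35, 4.79, 4.46 and 4.61 in hCNR1+/+ and 4.69, 4.47, 4.78 and 4.49 in hCNR1-/-, with overlapping groups and a difference of -0.20 (interval -0.73 to 0.33, limma adjusted p = 0.662). The very long-chain enzyme Acadvl differed by 0.35 (interval -0.15 to 0.85) and the short-chain enzyme Acads by 0.26 (interval -0.16 to 0.68). The long-chain enzyme Acadl differed by -0.71 (interval -2.03 to 0.61), where hCNR1-/- replicate 4 read -0.46 and the other three read 1.95 to 2.28.

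Acad10 and Acad11 are family members outside the classical spiral. Acad10 read 4.85, 4.57, 5.11 and 5.42 in hCNR1+/+ and 5.43, 5.89, 5.61 and 5.98 in hCNR1-/-. The groups were next to each other without overlap, and the difference was 0.74 (interval 0.19 to 1.28, exact permutation p = 0.0286, limma adjusted p = 0.117). Acad11 differed by -0.25 (interval -0.88 to 0.37).

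The enzymes of the next steps included 2 of the 4 members that were higher past a threshold. Hadha encodes the alpha subunit of the mitochondrial trifunctional protein, which carries the hydratase and the hydroxyacyl-CoA dehydrogenase for long chains. It read 0.40, 0.40, 0.79 and 1.12 in hCNR1+/+ and 1.79, 1.46, 1.63 and 1.60 in hCNR1-/-. All 4 hCNR1-/- arrays were above all 4 controls. The difference was 0.94 (SE 0.22, 1.92-fold, exact permutation p = 0.0286, limma adjusted p = 0.0492), just inside the adjusted threshold and just under a fold change of 2. Leaving out any 1 array gave 0.85 to 1.09.

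Hadhb encodes the beta subunit, the thiolase of the same complex, and passed neither threshold. It read 4.97, 4.64, 4.83 and 4.57 in hCNR1+/+ and 4.77, 4.55, 4.72 and 4.02 in hCNR1-/-, a difference of -0.24 (interval -0.75 to 0.27, limma adjusted p = 0.58). The within-array difference of Hadha minus Hadhb was 1.18 higher in hCNR1-/- than in hCNR1+/+; the pair was set side by side after its values were seen, so this is given without a test. Both genes are read outwards from 1 stretch of chromosome 5, Hadha to the minus strand and Hadhb to the plus strand. The 272 bases between their annotated starts, shown because the 2 subunit genes share them, stand at chr5:30154981-30155252 of GRCm38.p6 and are given from RefSeq promoter windows, plus strand, with both matches to GGGCGG (a GC box) in capitals.

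Hadha to Hadhb: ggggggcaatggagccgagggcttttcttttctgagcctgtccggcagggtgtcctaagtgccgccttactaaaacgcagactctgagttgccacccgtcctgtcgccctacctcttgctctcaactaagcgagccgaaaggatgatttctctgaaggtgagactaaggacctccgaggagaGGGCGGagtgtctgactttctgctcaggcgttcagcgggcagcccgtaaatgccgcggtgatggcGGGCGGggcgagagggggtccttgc

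Searched on both strands, this stretch held 2 copies of GGGCGG and 0 copies of CCAAT or of AGGTCA. Of 32851 RefSeq promoter windows of 300 bases, 35.7% held GGGCGG, 37.4% held CCAAT and 16.3% held AGGTCA. These are matches of letters and not sites of binding.

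Hadh, the hydroxyacyl-CoA dehydrogenase for medium and short chains, was higher as well. It read 3.14, 3.63, 3.79 and 4.13 in hCNR1+/+ and 4.27, 4.58, 4.70 and 5.95 in hCNR1-/-. The groups did not overlap, and the highest array was hCNR1-/- replicate 4. The difference of 1.20 (SE 0.38, 2.3-fold, exact permutation p = 0.0286) had a limma adjusted p of 0.103 and became 0.85 without that array, under the fold threshold.

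Echs1, the short-chain hydratase, differed by -0.22 (interval -0.98 to 0.54), with hCNR1-/- replicate 4 at 4.58 and the other 7 arrays between 5.72 and 6.22. Acaa2, the thiolase that closes the mitochondrial spiral, read 8.06, 8.42, 8.80 and 8.99 in hCNR1+/+ and 7.96, 8.77, 8.47 and 8.45 in hCNR1-/-. Its groups overlapped, with a difference of -0.16 (interval -0.76 to 0.45, limma adjusted p = 0.762).

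Unsaturated chains need isomerases and reductases before they can enter the spiral. Decr2, the 2,4-dienoyl-CoA reductase of peroxisomes, read 4.78, 5.03, 4.95 and 5.11 in hCNR1+/+ and 5.51, 5.71, 5.75 and 6.99 in hCNR1-/-. The groups did not overlap and replicate 4 was again the highest. The difference was 1.02 (SE 0.32, 2.03-fold, exact permutation p = 0.0286, limma adjusted p = 0.106). Without hCNR1-/- replicate 4 it was smaller, 0.69, under the fold threshold, but with less spread the adjusted p was 0.0287. Its mitochondrial counterpart Decr1 lay on the other side of 0, at -0.47 (interval -1.11 to 0.16), Eci2 at -0.39 (-1.11 to 0.33) and Eci1 at 0.19 (-0.30 to 0.68).

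Electrons leave the dehydrogenases through the electron transfer flavoprotein, encoded by Etfa and Etfb, and then through Etfdh to ubiquinone. Etfb differed by 0.48 (interval -0.06 to 1.02), Etfa by 0.24 (interval -0.21 to 0.68) and Etfdh by -0.63 (interval -1.51 to 0.24), and none passed a threshold. The 3 Etfb probes gave 0.48, 0.31 and 0.11, all above 0. The second Etfa probe gave -0.73 where the first gave 0.24, so the direction of Etfa depended on the probe.

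The 5 peroxisomal members stayed short of both thresholds. Acox2, the oxidase for bile acid intermediates and branched chains, differed by -0.31 (interval -1.06 to 0.45) and the bifunctional enzyme Ehhadh by 0.18 (interval -0.80 to 1.16). Both had hCNR1-/- replicate 4 far below the rest, at 5.41 where the other three read 6.71 to 6.94 for Acox2, and at 0.07 against 1.69 to 1.81 for Ehhadh. The thiolases Acaa1a and Acaa1b differed by 0.15 (-0.44 to 0.74) and -0.05 (-0.84 to 0.74); these are near-identical copies whose probes may share signal. Crot, which makes carnitine esters for export from peroxisomes, differed by 0.36 (-0.59 to 1.31).

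Acyl-CoA thioesterases, which release free fatty acid from coenzyme A, had no member past a threshold. Acot2 differed by 1.02 with an interval from -0.70 to 2.74, since hCNR1+/+ replicate 4 read -2.81 and hCNR1-/- replicate 4 read -1.68 against -0.79 to 1.04 on the other 6 arrays. Acot4 differed by -0.02 (-1.61 to 1.57), with hCNR1-/- replicate 4 at -2.83. Acot1 differed by -0.47 (-1.34 to 0.40) and Acot12 by 0.18 (-0.38 to 0.74). Acot3 was well above background on 0 of 8 arrays and was not tested, and Acot1 to Acot4 are close copies whose probes may share signal.

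Ketone body enzymes, with 2 tested, lay below the control mean without passing a threshold, on the side of 4808 of all 11072 genes. Bdh1, which reduces acetoacetate to 3-hydroxybutyrate, read 1.34, 2.44, 2.85 and 3.64 in hCNR1+/+ and 1.45, 2.95, 2.27 and 1.02 in hCNR1-/-. The spread within each genotype exceeded the difference of -0.64 (interval -1.85 to 0.56, limma adjusted p = 0.524). Acat1, the thiolase that condenses or splits acetoacetyl-CoA, differed by -0.22 (interval -0.97 to 0.52). For neither gene did the interval of the difference leave out 0.

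**Figure D3:**
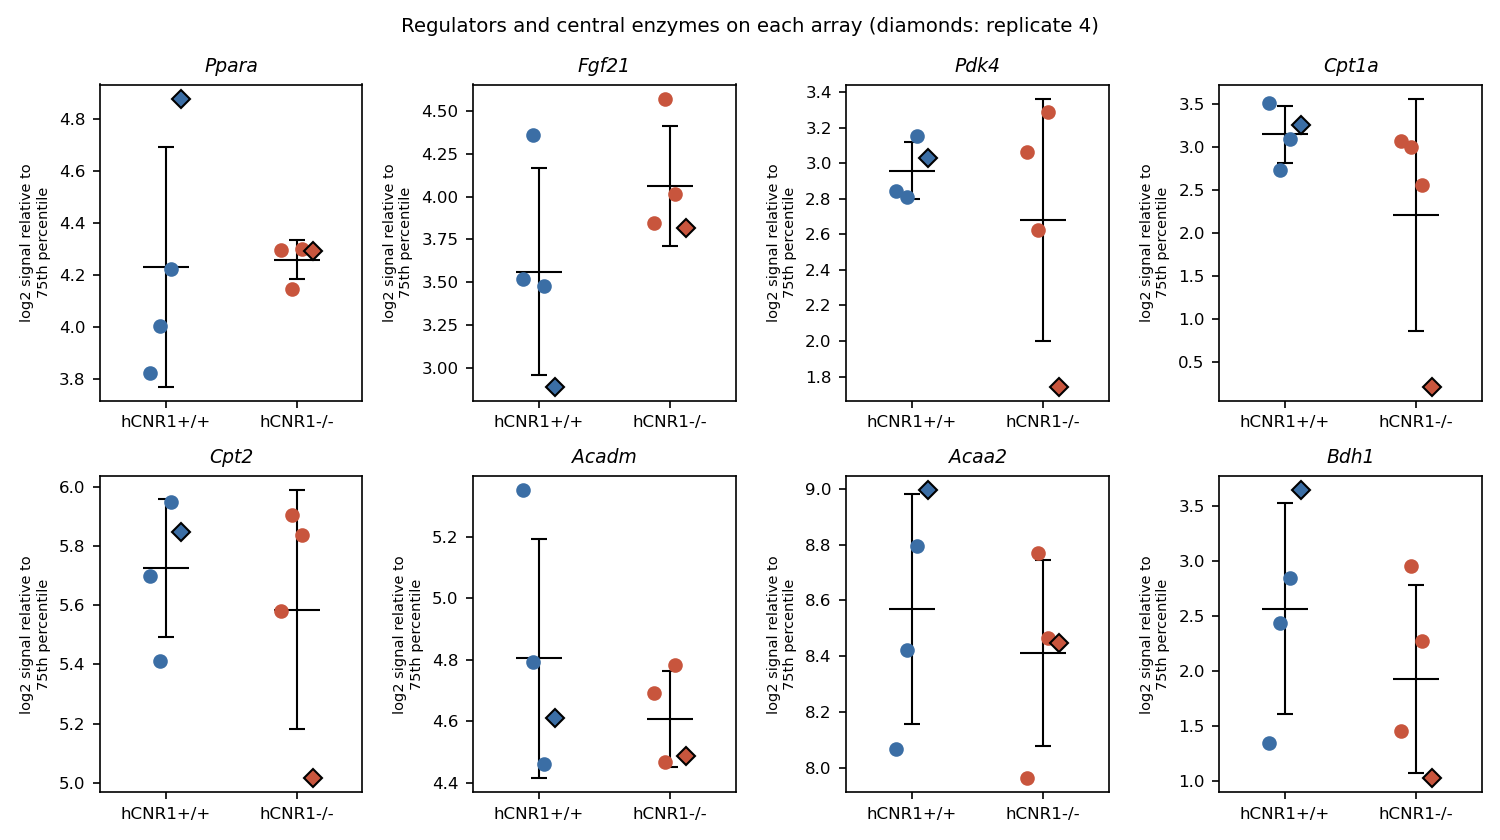
Log2 signal relative to the 75th percentile of each array (y axis) for Ppara, Fgf21, Pdk4, Cpt1a, Cpt2, Acadm, Acaa2 and Bdh1 by genotype; points are arrays, bars are means with 1 SD (n = 4), diamonds are replicate 4, and each axis has its own range. The genotypes overlap in all 8 panels, and hCNR1-/- replicate 4 sits apart at 0.22 for Cpt1a and 1.74 for Pdk4.

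Several of these genes shared 1 low array. On hCNR1-/- replicate 4, 15 of the 42 members (35.7%) were more than 1 log2 unit below their hCNR1+/+ mean, among them Cpt1a, Acadl, Etfdh, Echs1, Acox2, Ehhadh, Acsl1 and Bdh1. On the other three hCNR1-/- arrays 1 to 3 members were that low. Over all genes tested 23.9% were as low on that array and 3.61% to 4.81% on the other hCNR1-/- arrays, and it was the dimmest array, with 28.6% of spots well above background where the other 7 had 35.0% to 42.3%. On the same array 4 members (9.52%) were more than 1 unit above (Acsl4, Hadh, Decr2 and Etfb), where 12.8% of all genes were, and hCNR1-/- replicate 1 also had 4. The part of array brightness in these values was not tested. Without this array the median difference of the members was 0.05 and that of all genes 0.17. Adjusted calls were then Ucp2 lower and Hadha and Decr2 higher (2.38% and 4.76% of the members), while 2.92% of all genes were called lower and 10.1% higher.

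**Figure D4:**
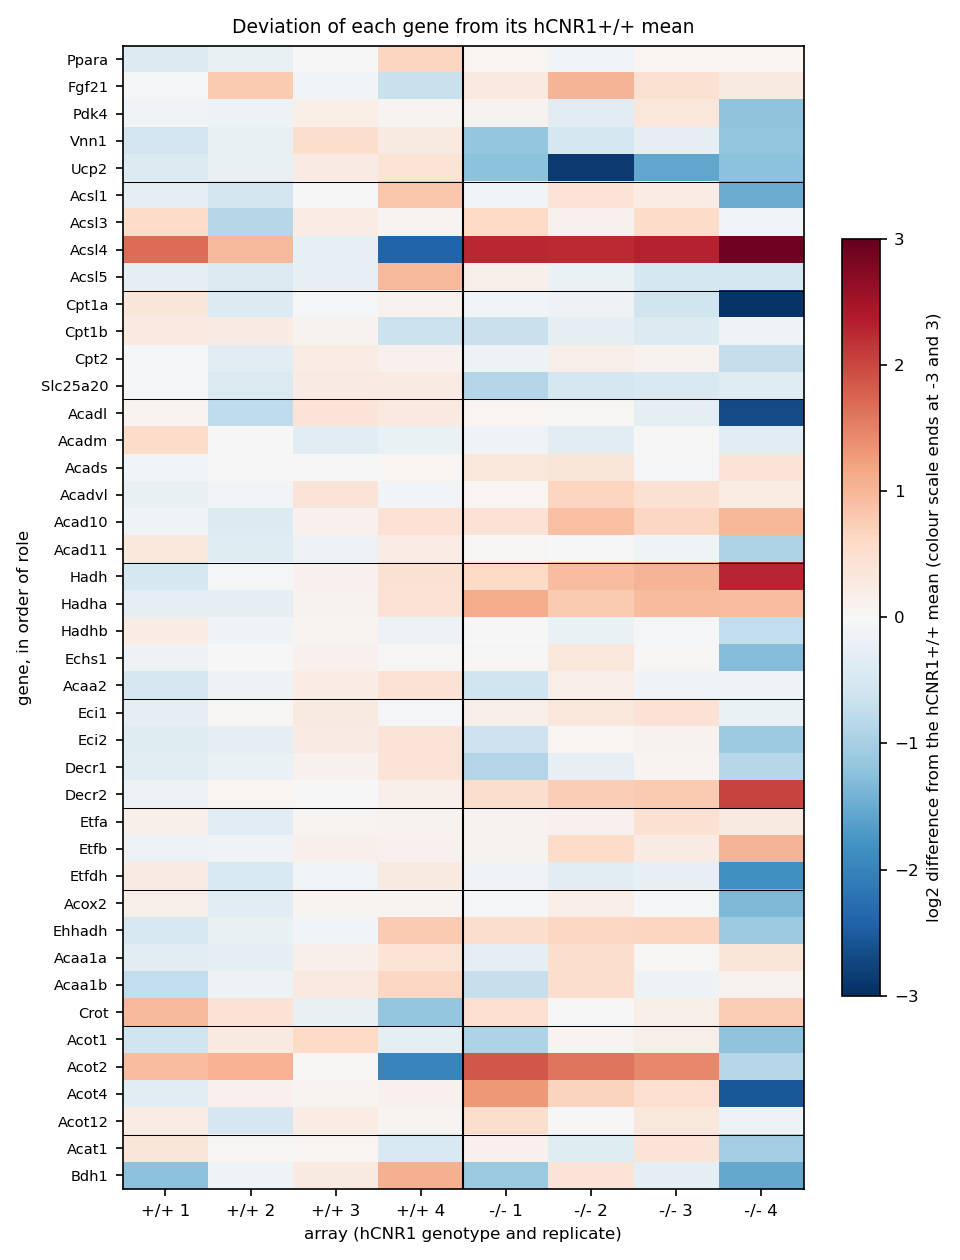
Log2 deviation of each tested gene (rows, in order of role, thin lines between roles) from its hCNR1+/+ mean on each of the 8 arrays (columns); red is higher and blue lower. The last column, hCNR1-/- replicate 4, holds 15 genes more than 1 unit below the mean. Genes that keep 1 colour across the 4 hCNR1-/- columns include Hadha, Acsl4, Ucp2, Hadh, Decr2 and Acad10.

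The wider pathway, given by 81 further genes listed by role, had 71 tested, of which 2 fell and 2 rose at an adjusted p below 0.05, and 3 were lower and 3 higher at the fold threshold, where all genes gave 1.3% lower and 2.94% higher by the first rule and 3.75% and 4.78% by the second. Their median difference was -0.12. Of the 19 tested genes of mitochondrial oxidation and fatty acid import 2 fell and none rose. Acadsb, the dehydrogenase for short branched chains from isoleucine, read -0.62, -0.85, -1.10 and -0.78 in hCNR1+/+ and -2.57, -2.83, -2.40 and -2.25 in hCNR1-/- (difference -1.67, SE 0.21, limma adjusted p = 0.00881). It passed the filter through hCNR1+/+, since only 1 hCNR1-/- array was well above background. With normexp background correction the difference was -0.39 with a limma adjusted p of 0.557, which the offset prevents from deciding the call for a probe this dim. Acsf2, a mitochondrial acyl-CoA synthetase, read 3.95, 4.02, 3.74 and 3.90 in hCNR1+/+ and 3.02, 3.11, 3.03 and 3.09 in hCNR1-/- (difference -0.84, SE 0.18, limma adjusted p = 0.035). That call held in 6 of 20 alternatives; a second, dimmer Acsf2 probe gave 0.48, and the mean of both probes gave -0.18 with an adjusted p of 0.611.

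Among 27 tested PPAR alpha targets and regulators outside the 45 genes, 2 rose and none fell at the adjusted threshold, and 2 were lower and 2 higher at the fold threshold. Over all genes 1.3% were lower and 2.94% higher by the first rule, and 3.75% and 4.78% by the second. Sirt1, the NAD-dependent deacetylase that acts on PGC-1 alpha, read -0.25, -0.70, -1.25 and -1.23 in hCNR1+/+ and 0.56, 1.12, 1.57 and 1.41 in hCNR1-/- (difference 2.02, SE 0.31, limma adjusted p = 0.0156). Cidec, a lipid droplet protein, read 3.42, 3.88, 3.72 and 3.60 in hCNR1+/+ and 5.04, 4.76, 4.88 and 4.17 in hCNR1-/- (difference 1.06, SE 0.24, limma adjusted p = 0.0427). Both were higher on all 4 hCNR1-/- arrays than on any control. The adjusted call held in 12 of 20 alternatives for Sirt1 and in 5 of 20 for Cidec, whose adjusted p was 0.0561 with quantile normalization, 0.398 with normexp and 0.863 without scaling. Of 19 tested peroxisomal genes none passed the adjusted threshold and 1 was higher at the fold threshold. That gene differed by 1.04 with its brightest probe, but its other probes gave -0.45 and -1.42, so its direction depended on the probe. None of the 7 tested further ketone body and carnitine genes passed either threshold, and their median was -0.36.

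PPAR alpha binds DNA beside RXR at 2 copies of AGGTCA in the same direction with 1 base between them. RefSeq promoter windows (250 bases before to 50 after the start, GRCm38.p6) were found for 39 of the 45 genes, 43 windows in all. On both strands, 0 of the 43 held the exact repeat (0.0396% of 32851 windows) and 6 (14.0%) held it with at most 2 mismatches over its 12 letters, beside 3.86% of all windows. The 6 matches are shown because they are the only ones of this form found for these genes, each with 10 bases on either side and the matched 13 bases in capitals.

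Echs1 (chr7:140116482-140116514, minus): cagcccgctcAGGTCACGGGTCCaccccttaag
Etfa (chr9:55512298-55512330, plus): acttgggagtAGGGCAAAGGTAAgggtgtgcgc
Slc25a20 (chr9:108662132-108662164, plus): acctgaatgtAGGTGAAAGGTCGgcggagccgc
Acot4 (chr12:84038356-84038388, minus): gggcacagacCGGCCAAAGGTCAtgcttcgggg
Acot12 (chr13:91741401-91741433, minus): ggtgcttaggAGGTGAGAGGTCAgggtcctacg
Acox2 (chr14:8258808-8258840, minus): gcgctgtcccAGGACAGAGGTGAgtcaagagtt

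The closest match, with 1 mismatch, was that of Acot12. None of these 6 genes passed a threshold, and their differences ran from -0.56 for Slc25a20 to 0.24 for Etfa. The 5 members past a threshold had no match in these windows. A match of letters is not a binding site, and sites outside the windows were not searched.

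**Figure D5:**
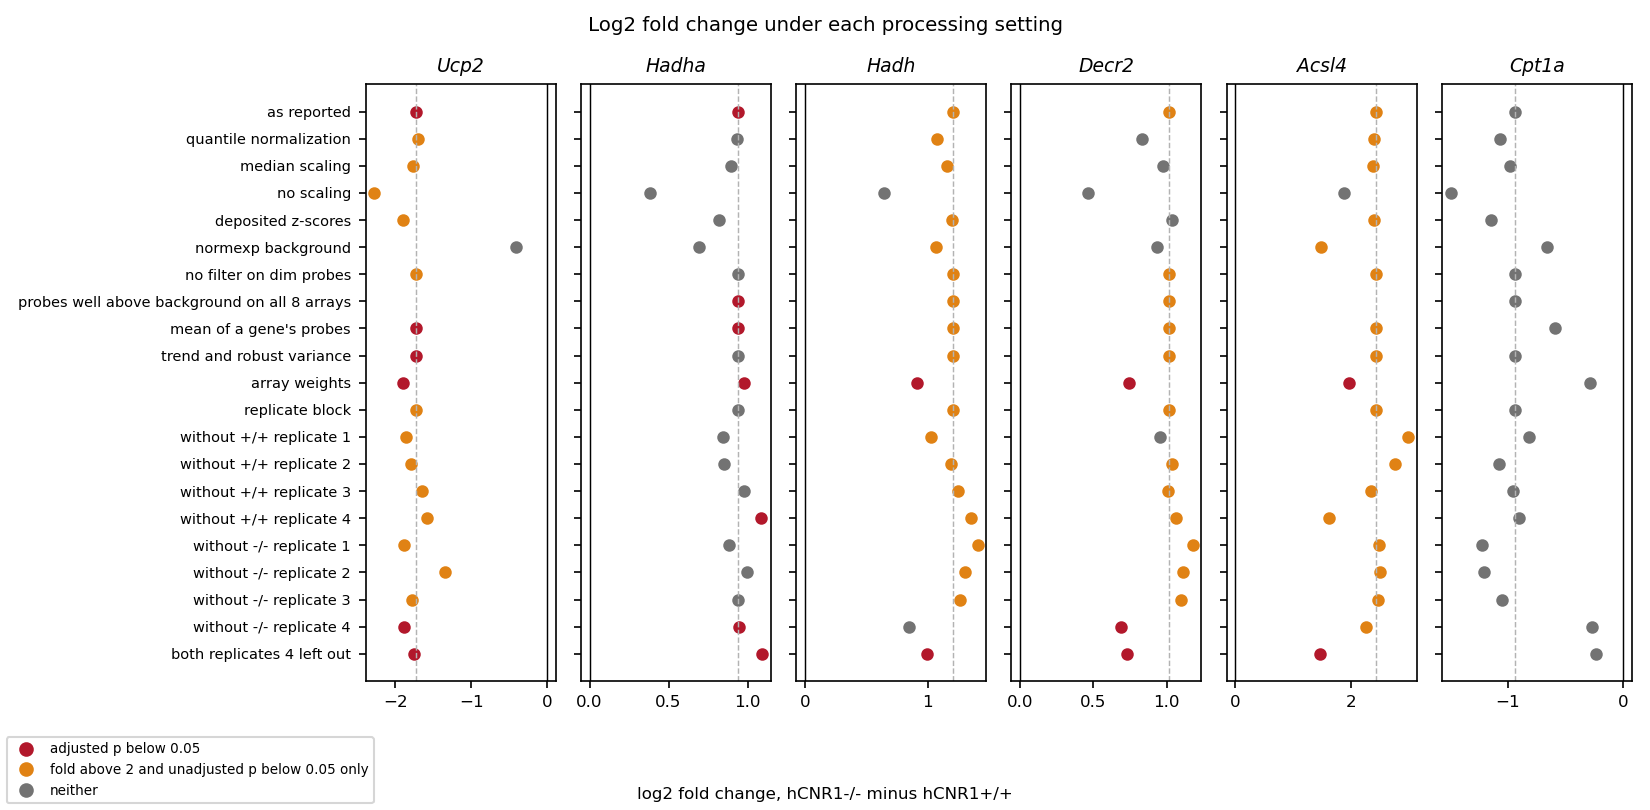
Log2 fold change (x axis, hCNR1-/- minus hCNR1+/+) of Ucp2, Hadha, Hadh, Decr2, Acsl4 and Cpt1a under each processing setting (rows); the dashed line marks the reported value and colour the threshold passed. All 6 keep their side of 0 in every setting shown, Ucp2 is closest to 0 with normexp background correction (-0.41), and Cpt1a is closest without replicate 4 of both genotypes (-0.24).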

How the data were processed

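Hepatocyte RNA of 8 samples was labelled with Cy3 and scanned. The authors' Feature Extraction software gave each spot a processed intensity (background subtracted, not scaled between arrays), median spot and background intensities, and flags. The deposited value table holds a score, which was each array's own z-score of log intensity to within 0.005 of a value recomputed here. The methods name no test for the arrays.

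Here, control and outlier spots were dropped, intensities were put on the log2 scale relative to each array's 75th percentile, spots of 1 probe were averaged, and the brightest probe stood for a gene. Probes were named by accession through a RefSeq table (GRCm38.p6), which named 28331 of 55681 probes. A probe entered the test when well above background on at least 4 arrays. Genotypes were compared with limma 3.58.1 in R 4.3.3 (lmFit, eBayes), with Benjamini-Hochberg adjustment over 11072 genes; exact permutation tests over 70 assignments served single genes. The script was checked on simulated data. No spot was saturated; 8 arrays limit the precision. The p-values measure the spread between samples, which were taken as separate mice from their numbered titles. A legend of the paper gives a smaller n for hepatocyte expression.

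Named genes were those past either threshold, a listed set of central enzymes whatever they showed, and further pathway genes past the adjusted threshold; 3 other genes of that rule are not reported here. The members, marker lists and pathway lists were chosen with earlier results of these data known, so no test was run on a list. Alternatives were 3 other scalings or none, normexp background correction (offset 50), 2 other filters, the mean of a gene's probes, trend and robust variance, array weights, a replicate block and leaving out arrays. Same-numbered samples did not deviate together (correlations -0.16 to 0.21), so replicate numbers were not treated as pairs. Marker lists for endothelial, stellate, lymphocyte, neutrophil and cholangiocyte cells had 11, 3, 2, 2 and 2 genes tested and median log2 differences of -0.18, -0.34, 0.68, -0.05 and -0.15, beside 0.24 for hepatocyte markers. At an adjusted p below 0.05, 0 of these genes fell (1.3% of all genes) and 1 rose, a hepatocyte marker (2.94% of all genes). So few genes cannot be told from those shares.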

Additional observations from a re-analysis of the deposited data

Results flagged for a closer look

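Among 46 genes (the 42 tested members and 4 named genes of the wider pathway) in both genotypes, 12 of 92 groups of 4 arrays had 1 array far from the other three by Dixon's ratio, above its 95% critical value. Chance flags about 1 in 20 such groups, and the genes of 1 array are not independent.

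In 7 of the 12 the far array was hCNR1-/- replicate 4. It was lowest for Acadl (-0.46, others 1.95 to 2.28), Etfdh (1.38, others 2.91 to 3.13), Acox2 (5.41, others 6.71 to 6.94), Ehhadh (0.0661, others 1.69 to 1.81) and Acot2 (-1.68, others 0.63 to 1.04). It was highest for Acsl4 (3.19, others 2.49 to 2.57) and Decr2 (6.99, others 5.51 to 5.75). This array was also the dimmest, and the part of its brightness was not tested.

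Single arrays stood apart elsewhere too. In hCNR1-/-, replicate 2 was lowest for Ppara (4.15, others 4.29 to 4.30) and replicate 3 was lowest for Acads (2.88, others 3.25 to 3.29). In hCNR1+/+, replicate 4 was highest for Acsl5 (4.16, others 2.75 to 2.93), replicate 2 was lowest for Etfa (4.27, others 4.67 to 4.73) and replicate 1 was lowest for Acot4 (-0.63, others -0.20 to -0.14).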

How the results depend on the processing

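Directions held for Ucp2, Hadha, Hadh, Decr2, Acsl4 and Cpt1a under every alternative that tested them (Ucp2 and Acsl4 were not tested under the filter on all 8 arrays), but the adjusted calls did not. At the adjusted threshold 0 members were lower and 0 higher under quantile normalization, median scaling, no scaling, the deposited z-scores, normexp, and no filter on dim probes. Few genes of any kind were called under these 6, 0.0655% to 0.777% of all genes lower and 0.00903% to 1.18% higher. At an unadjusted limma p below 0.05, 3 members were lower and 5 higher as reported, and 0 to 4 lower and 0 to 5 higher under these 6. The share of all genes at an unadjusted p alone was not counted, here or below. Requiring detection on all 8 arrays left 0 lower (0.645% of all genes), and with trend and robust variance 0 were higher (3.73% of all genes). The replicate block, a paired fit, gave 0 lower and 0 higher at the adjusted threshold, for members and for all genes, and 3 lower and 6 higher members at an unadjusted p below 0.05. At the fold threshold 0 members were higher without scaling (0.786% of all genes). By that rule 0 were lower with normexp (0.966% of all genes) or the filter on all 8 arrays (1.73%).

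Array weights gave 3 lower (Ucp2, Slc25a20, Cpt1b) and 7 higher members, 7.14% and 16.7% where all genes gave 5.83% and 19.7%. Leaving out both replicates 4, chosen after seeing the data, gave 2 lower and 8 higher (4.76% and 19.0%, all genes 4.34% and 15.4%). Leaving out 1 array gave 0 to 1 lower and 0 to 2 higher members, where 0.226% to 2.92% of all genes were lower and 0.117% to 10.1% higher. Among these fits Ucp2 kept its call only without hCNR1-/- replicate 4, and Hadha without hCNR1-/- replicate 4 or hCNR1+/+ replicate 4. The median of the members was -0.706 without scaling (all genes -0.47), 0.0669 with array weights and 0.116 without both replicates 4, and relative to all genes it ran from -0.29 to -0.09.

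Small differences changed sign. Ppara was -0.0826 with quantile normalization, -0.0194 with median scaling, -0.529 without scaling, -0.0432 with z-scores, -0.0367 with normexp, -0.0777 with the mean of probes and -0.109 to 0.242 leaving out 1 array. Fgf21 was -0.0553 without scaling. Leaving out 1 array gave -0.480 to 0.0338 for Pdk4 and -0.248 to 0.0475 for Cpt2 (both highest without hCNR1-/- replicate 4). Without both replicates 4, Pdk4 was 0.0577, Cpt2 0.0872 and Bdh1 0.0178, and with array weights Cpt2 was 0.000487. The cause of these changes was not tested. Dim probes limit Ucp2, Acsl3, Cpt1b and Acot2, which were well above background on 5 or 6 of 8 arrays.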
